A study of Rattus norvegicus with 6 samples.

Results

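The interferon response genes examined in the rat heart were Irf1, Irf7, Irf9, Stat2, Ifit2, Ifit3, Mx1, Isg15 and Cxcl10. They were chosen by symbol, and all 9 of them were found among the 28293 genes of the expression table. RNA of myocardial tissue had been sequenced from 3 sham-operated rats (sham) and 3 rats in which the left anterior descending coronary artery was tied and then released (I/R). All were male and wild type, and the labels name no drug. The titles of both groups carry the same times, 30 min and 6 h, without saying of what. By the methods of the study these were the ischemia and the reperfusion of the I/R rats. Neither the strain nor the age of the rats is given in the labels. Expression was given as FPKM, that is fragments per kilobase of transcript scaled to the mapped fragments of the library. A gene was tested where its mean over the 6 samples was at least 0.5 FPKM, which 10942 genes and 7 of the 9 interferon response genes reached. Irf9 and Isg15 did not.

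Interferons are secreted proteins that warn neighboring cells of infection or damage. Type I interferons bind the receptor Ifnar1/Ifnar2 and act through the kinases Jak1 and Tyk2, while interferon-gamma binds Ifngr1/Ifngr2 and acts through Jak1 and Jak2. Below the type I receptor, Stat2 and Irf9 are parts of the transcription factor ISGF3, which binds the interferon-stimulated response element (ISRE). The genes it turns on include antiviral effectors (Ifit2, Ifit3, Mx1, Isg15) and Irf7, which amplifies interferon production. Irf1 and the chemokine Cxcl10 also answer to interferon-gamma and to the inflammatory factor NF-kB. In the injured heart, interferon-stimulated genes are known from infiltrating macrophages and neutrophils as well as from resident cells.

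Of the 7 genes tested, 2 passed the threshold and were higher in I/R, against 25.5% of all genes tested, and 0 passed as lower, against 7.36%. These 2 were also the only ones of the 7 whose groups did not overlap, against 37.2% of all genes on the higher side and 13% on the lower. Cxcl10 was 5.95-fold and Ifit3 2.67-fold higher by the ratio of mean FPKM. Stat2, Irf7, Irf1 and Ifit2 overlapped between the groups and did not pass. Mx1 was lower in I/R by the means but did not pass either (adjusted p = 0.0607 in limma). The values of single samples differ in how far they can be compared, and this has to be stated first. Mitochondrially encoded mRNAs took 80.1 to 86.2% of all FPKM in the sham samples and 61.8 to 71.5% in the I/R samples, so that less was left for the other genes in the sham samples. In the deposited scaling the median gene had a log2 fold change of 0.29, and 77.6% of the genes called were higher in I/R. With FPKM rescaled over all genes but the 13 mitochondrial mRNAs, that median was −0.48 and the share 21.5%. With each sample centred on its median the share was 56.5%, after quantile normalization 48% and after rescaling to TPM 87.3%. The total without the mitochondrial mRNAs still holds the cardiomyocyte markers. These summed to 3615 to 11831 FPKM in sham and 24717 to 35838 in I/R, so that total also differed in make-up between the groups. No scaling is taken here as the correct one. The samples come from whole tissue, in which fewer cells of a type and less RNA per cell cannot be told apart.

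**Figure D1:**
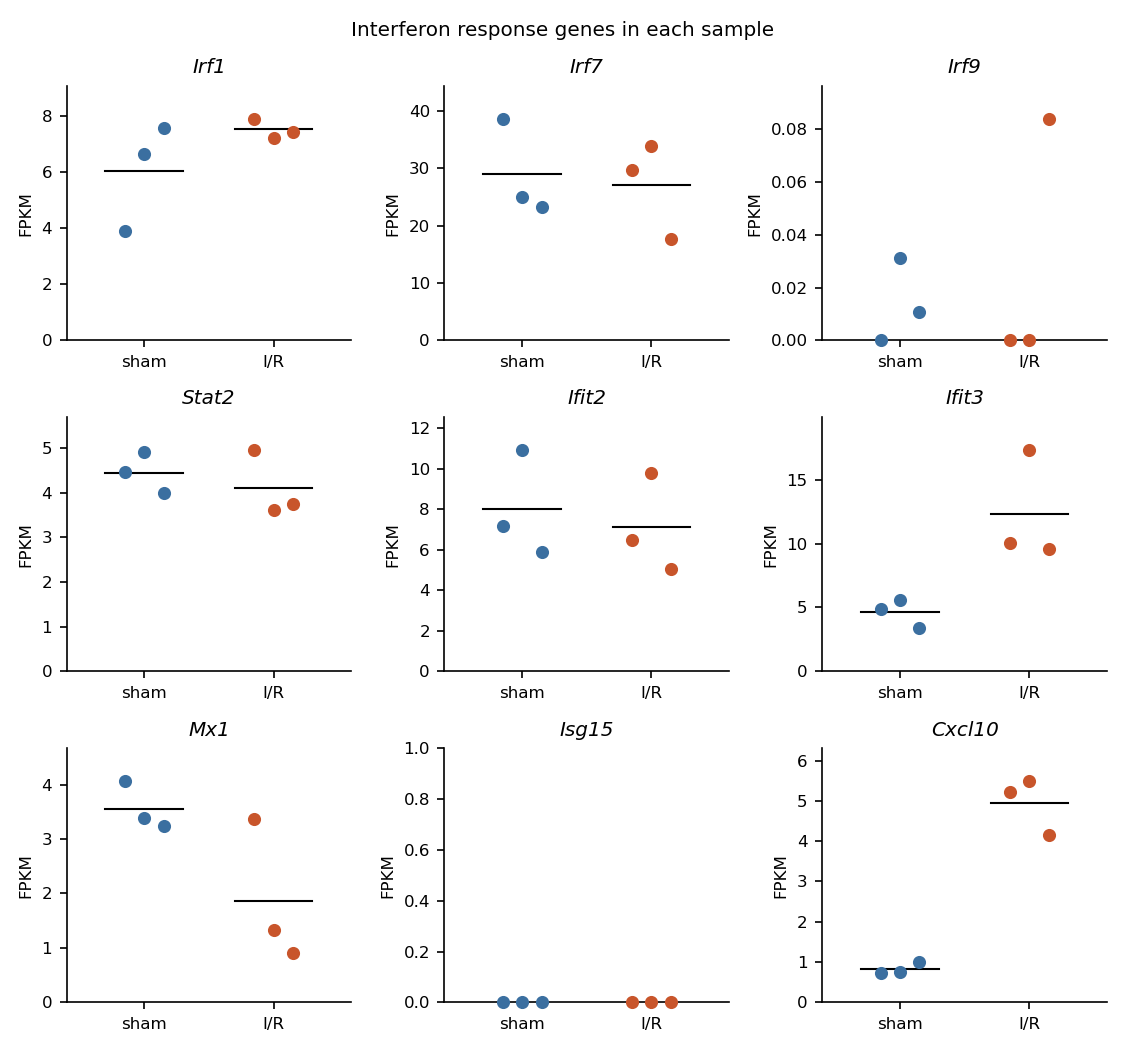
FPKM of each of the 9 interferon response genes in the 3 sham and 3 I/R samples, with one point per sample and, for the 7 genes tested, a line at the group mean. The groups are apart for Cxcl10 (0.739 to 0.994 against 4.15 to 5.49) and Ifit3 (3.39 to 5.59 against 9.59 to 17.3), and overlap for the other tested genes.

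Cxcl10 and Irf1 are printed here with the bases upstream of their start sites, together with Ifit3 and Irf7, because these windows hold the elements through which such genes are known to be read. The sequences are from RefSeq (assembly GRCr8), run 5′ to 3′ on the strand of the gene and end at the base before the transcription start. Of the 9 genes, 7 were matched in the promoter table. Capitals mark the ISRE letters GAAANNGAAA (or TTTCNNTTTC on the other strand), the STAT-binding GAS letters TTCNNNGAA, and the NF-kB letters GGGANNTTCC (or GGAANNTCCC).
Cxcl10, chr14:15988816-15989065, plus strand: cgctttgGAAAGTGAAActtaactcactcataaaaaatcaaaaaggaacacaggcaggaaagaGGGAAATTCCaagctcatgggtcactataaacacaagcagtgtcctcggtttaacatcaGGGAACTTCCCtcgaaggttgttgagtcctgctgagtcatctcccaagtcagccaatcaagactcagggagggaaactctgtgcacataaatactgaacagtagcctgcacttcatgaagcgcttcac
Ifit3, chr1:241527206-241527325, plus strand: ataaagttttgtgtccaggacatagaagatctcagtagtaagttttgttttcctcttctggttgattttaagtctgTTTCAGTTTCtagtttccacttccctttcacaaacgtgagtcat
Irf7, chr1:205800024-205800143, minus strand: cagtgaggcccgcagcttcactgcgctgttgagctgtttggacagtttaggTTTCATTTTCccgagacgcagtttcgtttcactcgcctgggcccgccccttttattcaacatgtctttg
Irf1, chr10:38417785-38417934, plus strand: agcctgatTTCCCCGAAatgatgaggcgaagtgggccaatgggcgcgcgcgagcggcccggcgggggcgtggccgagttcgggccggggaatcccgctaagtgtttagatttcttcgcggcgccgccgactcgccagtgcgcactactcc

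The ISRE letters lay from −243 to −234 in Cxcl10, from −44 to −35 in Ifit3 and from −69 to −60 in Irf7, counted from the start site. They were in 3 of the 7 windows of 250 upstream bases, and in 3.41% of all 33469 promoters of the table. The GAS letters lay from −142 to −134 in Irf1 and from −99 to −91 in Irf9, and were in 7.67% of all promoters. Cxcl10 alone of the 7 held the NF-kB letters, at −187 to −178 and in an overlapping pair on both strands from −128 to −118, while 1.08% of all promoters held them. The letters of these 3 motifs were not found in the windows of Stat2 and Mx1. Such a match describes letters only. Other spellings of these elements were not searched for, so a window without a match, such as that of Irf1 for NF-kB, can still hold one. Cxcl10 and Ifit3, which passed the test, and Irf7, which did not, each held an ISRE match.

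**Figure D2:**
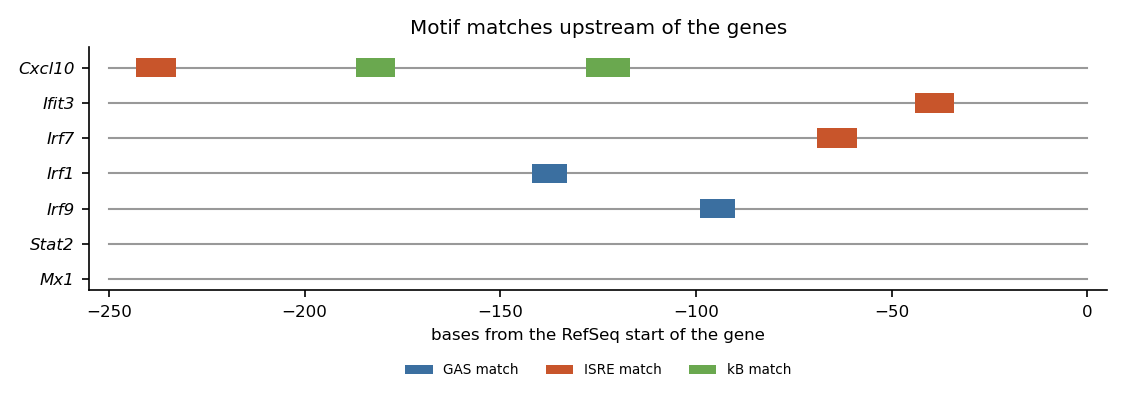
Positions of the ISRE, GAS and NF-kB letter matches within 250 bases upstream of the start site (gray lines) of the 7 interferon response genes with a RefSeq promoter, on an axis of bases from the start. Cxcl10 holds the ISRE match farthest from the start (−243 to −234) and Ifit3 the nearest (−44 to −35).

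Among the transcription factors, Stat2 was at 4.46, 4.90 and 3.99 FPKM in sham and at 4.95, 3.61 and 3.74 in I/R. The groups overlapped, and the highest of the 6 values was an I/R sample. The log2 fold change (I/R minus sham, on the scale log2(FPKM + 0.1)) was −0.12, with a 95% interval of −0.62 to 0.37 and an adjusted p of 0.698 in limma. Irf9, the DNA-binding partner of Stat2 in ISGF3, was close to the floor. It was listed at 0, 0.031 and 0.011 FPKM in sham and at 0, 0 and 0.084 in I/R. In steps of the smallest value that the table allows for this gene, these were 0, 3, 1 and 0, 0, 6 steps, taken as fragments. A difference was not detectable from such values. Why they were so low was not tested, and, as for Isg15 below, they are given without a reading of the level of Irf9.

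Irf7 had the highest mean of the 9 genes, 28.03 FPKM over the 6 samples. It was at 38.6, 25.1 and 23.3 FPKM in sham and at 29.7, 33.9 and 17.7 in I/R. The highest value was a sham sample and the lowest an I/R sample, with the others mixed between them. Between the groups Irf7 differed by −0.11 on the log2 scale (interval −0.80 to 0.58, adjusted p = 0.804, limma). Its sign turned without sham 1 (0.11), without I/R 3 (0.17) and after rescaling to TPM (0.084), and Irf7 was called lower when the mitochondrial mRNAs were left out of the scaling (−0.90, adjusted p = 0.0228) or after quantile normalization (−0.97, adjusted p = 0.0258).

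Irf1 was at 3.90, 6.67 and 7.60 FPKM in sham and at 7.90, 7.25 and 7.46 in I/R. The I/R samples lay close together, and 1 sham sample, sham 1, lay below the other 5. Irf1 had a log2 difference of 0.36 (interval −0.24 to 0.97, adjusted p = 0.326, limma), and of 0.080 without sham 1. To compare Irf1 with Irf7 without regard to the scaling of a library, their log2 values were subtracted within each sample. Irf1 minus Irf7 was −3.27, −1.89 and −1.60 in sham and −1.89, −2.21 and −1.23 in I/R, with means of −2.26 ± 0.89 and −1.78 ± 0.50 (SD, n = 3 each). The groups overlapped, with a difference of 0.48 and p = 0.6 (exact permutation, two-sided, where 0.1 is the smallest p that 3 rats against 3 allow). Without sham 1 the difference was −0.032.

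Cxcl10, the chemokine that draws T cells and other cells bearing Cxcr3, was the gene of the set with the largest difference. It was at 0.739, 0.765 and 0.994 FPKM in sham and at 5.22, 5.49 and 4.15 in I/R. Every I/R sample lay more than 4 times above every sham sample. The log2 fold change was 2.44 ± 0.23 (SE, n = 3 each), with an interval of 1.92 to 2.96, an adjusted p of 0.00051 in limma and p = 0.1 in the exact permutation test, the smallest possible. It was called under each of the 17 alternatives tried. Of all genes tested, 98.5% had a smaller log2 fold change. Cxcl10 overlaps Art3, an ADP-ribosyltransferase gene, on the opposite strand in RefSeq, and Art3 was also higher in I/R (35.5, 29.9 and 25.4 FPKM in sham, 83.3, 43.8 and 47.2 in I/R). For Art3 the difference was 0.89 on the log2 scale (adjusted p = 0.0412, limma). The library kit was stranded, but whether strand was used in counting is not given in the sources used here, and the part of Art3 in the Cxcl10 values was not tested.

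Cxcl10 was set beside Cxcl9, the neighboring ligand of the same receptor, in a comparison chosen after their values were seen. Cxcl9 was at 9.33, 7.41 and 7.29 FPKM in sham and at 13.0, 8.62 and 10.7 in I/R, and did not pass (log2 fold change 0.41, adjusted p = 0.209, limma). Cxcl10 minus Cxcl9 within a sample was −3.49, −3.12 and −2.76 in sham and −1.30, −0.64 and −1.34 in I/R. The level of Cxcl10 per length was therefore below that of Cxcl9 in every sample, and by less in I/R. The difference of 2.03 on the log2 scale had p = 0.1 in the exact permutation test, and was 1.32 with a pseudocount of 1.

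Of the antiviral effectors, Ifit3 and Ifit2 are related proteins with tetratricopeptide repeats that bind RNA or act on translation, and Ifit3 is known to stabilize its relatives. Ifit3 was at 4.86, 5.59 and 3.39 FPKM in sham and at 10.0, 17.3 and 9.59 in I/R. All I/R values were above all sham values, and I/R 2 stood above the other I/R samples. The log2 fold change was 1.37 ± 0.30 (SE, n = 3 each), with an interval of 0.71 to 2.03 and an adjusted p of 0.00863 in limma. The call was lost when the mitochondrial mRNAs were left out of the scaling (0.61, adjusted p = 0.148) and after quantile normalization (0.88, adjusted p = 0.0541).

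Ifit2 was at 7.18, 10.9 and 5.92 FPKM in sham and at 6.48, 9.81 and 5.06 in I/R. Each group held one sample near 10 FPKM and a pair of lower ones, and the groups overlapped. For Ifit2 the difference was −0.17 on the log2 scale (interval −0.87 to 0.52, adjusted p = 0.699, limma), and its sign turned without sham 2 (0.072), without I/R 3 (0.042) and after rescaling to TPM (0.020). Ifit3 minus Ifit2 within a sample, a comparison also chosen after the values were seen, was −0.56, −0.95 and −0.79 in sham and 0.62, 0.81 and 0.91 in I/R. Ifit2 was thus the higher of the pair per length in each sham sample and Ifit3 in each I/R sample. The difference was 1.55 (p = 0.1, exact permutation test, the smallest possible) and lay between 1.37 and 1.65 in every alternative tried for it. How reads shared by these related genes were handled in counting is not given in the sources used here, and their part was not tested.

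**Figure D3:**
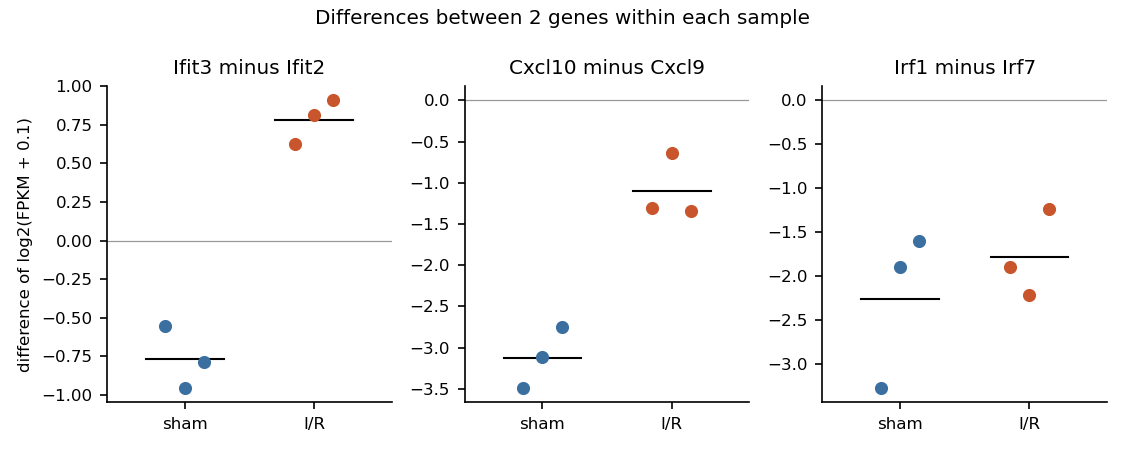
Differences of log2(FPKM + 0.1) between 2 genes of the same sample, for Ifit3 minus Ifit2, Cxcl10 minus Cxcl9 and Irf1 minus Irf7, with one point per sample and a line at the group mean. The sham and I/R samples are apart for the first 2 pairs, by 1.55 and 2.03 between the means, and overlap for Irf1 minus Irf7.

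Mx1 encodes a dynamin-like GTPase that blocks viruses and is a common gauge of type I interferon. It was at 4.06, 3.38 and 3.24 FPKM in sham and at 3.37, 1.34 and 0.901 in I/R. The sham samples lay close together, and I/R 1 lay among them while the other I/R samples were lower. The log2 fold change was −1.09 ± 0.40 (SE, n = 3 each), with an interval of −1.98 to −0.20, an unadjusted p of 0.0215 and an adjusted p of 0.0607 in limma. With the replicate number of the labels as a block the adjusted p was 0.02, and without I/R 1 Mx1 was called lower (−1.60, adjusted p = 0.00875, limma). Mx1 was also called lower after centring (−1.34), after quantile normalization (−1.33) and when the mitochondrial mRNAs were left out of the scaling (−1.92), but not after rescaling to TPM (−0.91, adjusted p = 0.118). Its paralog Mx2 could share reads with it. Isg15, the ubiquitin-like protein that is joined to other proteins in the interferon response, was listed at 0 in all 6 samples. Of the 28293 genes, 9067 are listed at 0 throughout, among them the receptor chain Il10rb and the transcription factor Stat6, so the listing is reported without a reading of its level.

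Beside the 2 calls, 1 of the 7, Mx1, was lower at an unadjusted p under 0.05 in limma. The median log2 fold change of the 7 was −0.11, beside 0.29 over all genes. When the mitochondrial mRNAs were left out of the scaling, 5 of the 7 were called, 1 higher (Cxcl10), against 7.06% of all genes in that scaling, and 4 lower (Irf7, Stat2, Ifit2, Mx1), against 25.8%. Cxcl10 and Ifit3 had the highest log2 fold changes and Mx1 the lowest under each scaling plotted.

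**Figure D4:**
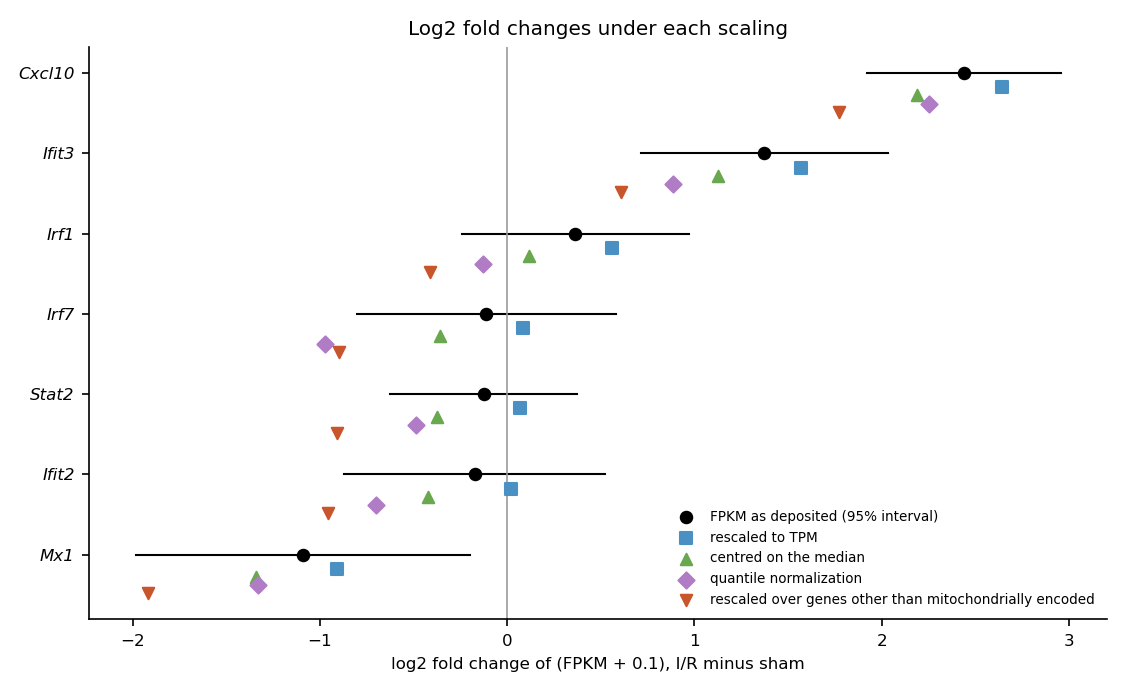
Log2 fold change (I/R minus sham) of the 7 interferon response genes tested, under the deposited FPKM (black points, bars for the 95% interval) and 4 other scalings (colored symbols). Cxcl10 and Ifit3 lie above 0 under all of them and Mx1 below, while Irf1, Irf7, Stat2 and Ifit2 lie on either side of 0 depending on the scaling.

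As a description over 6 samples, with group means removed, the log2 values of Ifit2 and Ifit3 ran together (r = 0.93), as did those of Stat2 and Mx1 (r = 0.80), while Irf1 and Irf7 ran apart (r = −0.62). These pairs are named because they had the highest values and the lowest among all pairs of the tested genes of the set. Ifit3 and Cxcl10, the genes called, had r = −0.013. Within a sample all genes share its library depth and scaling, so the values describe the samples. By the same measure the closest of all tested genes were Akap10 for Irf1, Dyrk3 for Irf7, Zer1 for Stat2, Synm for Ifit2, an unnamed gene (ENSRNOG00000063763) for Ifit3, Thoc5 for Mx1 and Med6 for Cxcl10, with r from 0.992 (Med6, rounded) upward over 6 samples among 10942 genes.

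The rest of the pathway was read from lists of 112 matched genes, of which 91 were tested. In all, 16 of the 91 were called higher (17.6%, against 25.5% of all genes) and 10 lower (11%, against 7.36%), with a median log2 fold change of −0.096. When the mitochondrial mRNAs were left out of the scaling, 2 were higher (against 7.06% of all genes) and 44 lower (against 25.8%). The counts below are in the deposited scaling unless another is named. There 25.5% of all genes were called higher and 7.36% lower. Without 1 sample these shares were 14 to 23.4% and 2.82 to 8.05%. They were 18.5% and 14.2% after centring, 13.2% and 14.2% after quantile normalization, and 31.5% and 4.61% in TPM. With the replicate block they were 28.2% and 8.18%, and with a filter at 1 FPKM 29.8% and 6.91%.

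Interferon ligands could not be tested. Of 8 matched ligand genes, 7 (Ifnb1 among them) were listed at 0 in every sample, which, as for Isg15, is given without a reading of their level. The other, Ifng, was at 0, 0.039 and 0.082 FPKM in sham and at 0 in each I/R sample, which amounted to 0, 1 and 2 such steps.

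Among 8 receptor and Janus kinase genes tested, 2 were higher in I/R (25%, against 25.5% of all genes) and 2 lower (25%, against 7.36%). Ifngr2, the signaling chain of the interferon-gamma receptor, rose from 2.60, 2.81 and 1.88 FPKM in sham to 6.97, 5.39 and 5.87 in I/R (log2 fold change 1.30, adjusted p = 0.005, limma). Jak2, which is bound to that chain, was at 0.696, 1.02 and 0.825 FPKM in sham and at 1.76, 1.70 and 2.17 in I/R (1.07, adjusted p = 0.0124, limma). Ifnar2, the high-affinity chain of the type I receptor, fell from 4.59, 5.33 and 5.07 FPKM to 2.49, 2.83 and 2.41 (−0.93, adjusted p = 0.0095, limma). Tyk2, the kinase of the other type I chain, was at 1.71, 2.14 and 2.14 FPKM in sham and at 1.02, 0.929 and 0.980 in I/R (−0.95, adjusted p = 0.0132, limma). None of these 4 genes overlapped between groups, as was the case for 37.2% of all genes on the higher side and 13% on the lower. When the mitochondrial mRNAs were left out of the scaling, 0 genes of the list were called higher, so that the calls of Ifngr2 and Jak2 were lost, and 3 were lower. Ifngr1, the gene of the list with the highest mean, did not pass (0.52, adjusted p = 0.167, limma).

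Of 9 other STAT and IRF genes tested, 2 were called, both higher (22.2%, against 25.5% of all genes). Stat3, the factor below interleukin-6 family receptors, was at 5.52, 6.05 and 4.41 FPKM in sham and at 14.3, 15.004 and 12.2 in I/R (1.37, adjusted p = 0.0037, limma). Irf8, a factor of myeloid cells, was at 1.19, 1.48 and 1.44 FPKM in sham and at 2.94, 2.47 and 2.99 in I/R (0.98, adjusted p = 0.0101, limma). None of the 9 was called lower, with 1 lower at an unadjusted p under 0.05 in limma. With the replicate block 2 were higher and 1 lower, as also after quantile normalization and without sham 1, and when the mitochondrial mRNAs were left out of the scaling 0 were higher and 1 lower, so that the calls of Stat3 and Irf8 were lost. Among 9 nucleic acid sensing genes tested, 2 were lower (22.2%, against 7.36% of all genes) and 0 higher (against 25.5%), and 0 were higher at an unadjusted p under 0.05 in limma. Ikbke, a kinase that activates interferon regulatory factors, was at 0.871, 1.35 and 1.46 FPKM in sham and at 0.185, 0.415 and 0.449 in I/R (−1.59, adjusted p = 0.0123, limma). Tlr3, the endosomal receptor of double-stranded RNA, was at 1.53, 1.52 and 1.33 FPKM in sham and at 0.705, 0.582 and 0.588 in I/R (−1.11, adjusted p = 0.0112, limma). Mavs, with the highest mean of the list, did not pass (−0.13, adjusted p = 0.823, limma). Without sham 3, 1 gene of this list was called, lower, where 3.28% of all genes were lower.

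Other antiviral interferon-stimulated genes formed the largest list, with 32 tested. Of these, 6 were lower in I/R (18.8%, against 7.36% of all genes) and 0 higher, with 3 higher at an unadjusted p under 0.05 in limma, and the median log2 fold change was −0.39. Ifi44, an interferon-induced antiviral protein, was at 8.63, 14.04 and 12.5 FPKM in sham and at 4.77, 3.05 and 2.24 in I/R (−1.81, adjusted p = 0.00418, limma). Its relative Ifi44l was at 2.995, 5.15 and 4.84 FPKM in sham and at 1.76, 1.45 and 1.02 in I/R (−1.55, adjusted p = 0.0053, limma). Cmpk2, a mitochondrial nucleotide kinase, and Uba7, the activating enzyme for Isg15, were lower by 1.27 and 1.26 on the log2 scale (log2 fold changes −1.27 and −1.26, adjusted p = 0.0133 and 0.0118, limma). As with Mx1, the highest I/R value of Ifi44, Ifi44l, Cmpk2 and Uba7 was in I/R 1. That sample also had the lowest mitochondrial share of the 6 samples (61.8%), and the part of this in the ranking was not tested. The count was 2 without sham 2, both lower, where 2.82% of all genes were lower. It was 22, all lower, when the mitochondrial mRNAs were left out of the scaling, where 25.8% of all genes were lower. Some genes of the list were called higher under other settings, with 3 higher and 6 lower with the replicate block, 3 higher and 4 lower in TPM, 1 higher and 7 lower without sham 1, 1 higher and 5 lower without I/R 3, and 1 higher and 6 lower with a filter at 1 FPKM. Ifi27, with the highest mean of the list, did not pass (−0.20, adjusted p = 0.584, limma).

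Among 20 genes tested that answer mainly to interferon-gamma, 4 were higher (20%, against 25.5% of all genes) and 0 lower, with 1 lower at an unadjusted p under 0.05 in limma. Cxcl11, the remaining ligand of Cxcr3, was at 3.34, 1.80 and 1.63 FPKM in sham and at 12.0, 4.32 and 5.06 in I/R (1.54, adjusted p = 0.0176, limma). Overlap with other genes was looked up only for the interferon response genes of the set, and so not for Cxcl11. The samples ranked in the same order for Cxcl11 as for Art3, the gene that overlaps Cxcl10, with I/R 1 highest for both. This likeness was picked after the values were seen. Of the other genes called in this list, Psme1 and Wars1 were also highest in I/R 1, and Serping1 in I/R 3. The part of Art3 in the Cxcl11 values was not tested. Psme1, a proteasome activator subunit, was at 62.7, 52.5 and 54.0 FPKM in sham and at 173, 110.4 and 126 in I/R (1.25, adjusted p = 0.00656, limma). Wars1, a tryptophan tRNA synthetase, and Serping1, the C1 inhibitor, also rose (1.04 and 0.75, adjusted p = 0.013 and 0.0375, limma). B2m, the light chain of MHC class I and the highest of the list, had a log2 fold change of 0.019 (interval −0.50 to 0.54, adjusted p = 0.958, limma). The direction of the calls in this list changed with the scaling, as it did over all genes. When the mitochondrial mRNAs were left out, 0 were higher (against 7.06% of all genes) and 8 lower (against 25.8%). After centring, 3 were higher (against 18.5%) and 3 lower (against 14.2%). Without sham 3 the count was 1, higher, where 14% of all genes were higher.

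Negative regulators of interferon and cytokine signaling had the largest share called higher of the interferon lists, 8 of 13 (61.5%, against 25.5% of all genes), with a median log2 fold change of 0.87. None was called lower, with 1 lower at an unadjusted p under 0.05 in limma. Socs3, which blocks signaling through Stat3, rose from 0.947, 1.40 and 2.89 FPKM in sham to 22.5, 13.5 and 21.8 in I/R (log2 fold change 3.49 ± 0.38 SE, n = 3 each, adjusted p = 0.000949, limma). Tnfaip3, an inhibitor of NF-kB signaling, was at 0.410, 0.257 and 0.466 FPKM in sham and at 2.29, 2.50 and 1.87 in I/R (2.30, adjusted p = 0.0021, limma). Socs1, which inhibits the Janus kinases, was at 1.33, 1.23 and 0.978 FPKM in sham and at 2.11, 3.08 and 3.40 in I/R (1.20, adjusted p = 0.00855, limma). The phosphatases Ptpn1 and Ptpn11 also rose (1.30 and 0.87, adjusted p = 0.00678 and 0.0341, limma). The count was 5 without sham 3 and 5 without I/R 2, all higher, where 14% and 20.7% of all genes were higher. When the mitochondrial mRNAs were left out of the scaling, 2 of the 13 were higher (against 7.06% of all genes) and 4 lower (against 25.8%).

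**Figure D5:**
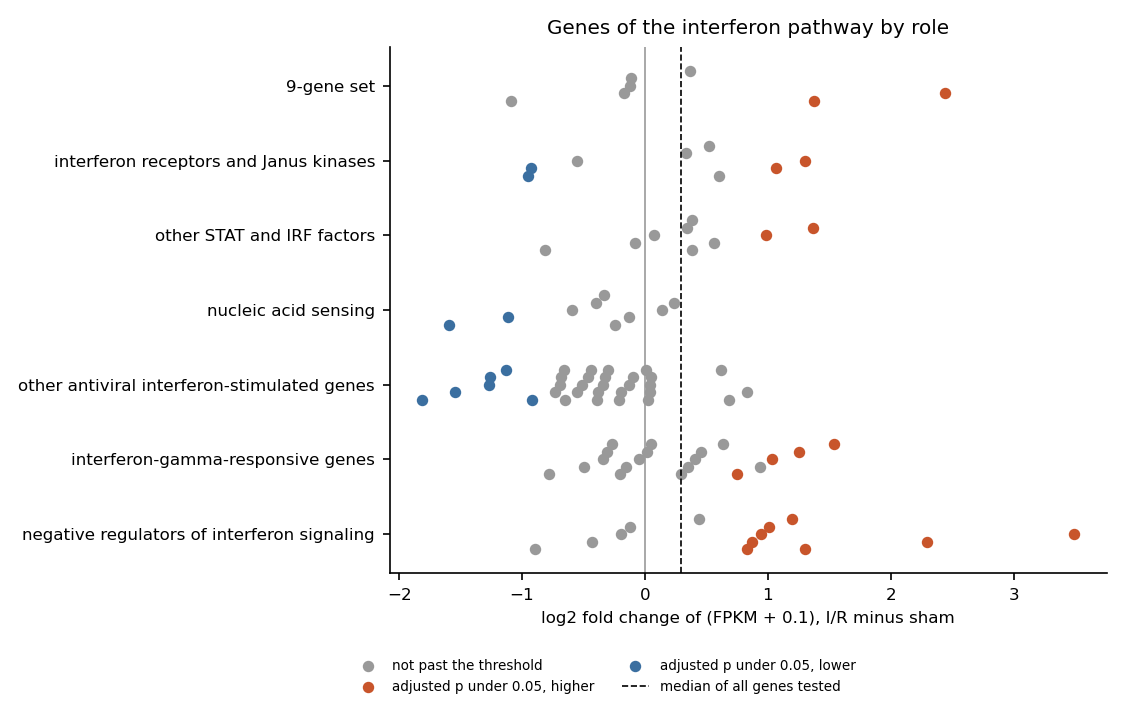
Log2 fold change (I/R minus sham, deposited scaling) of each tested gene of the 9-gene set and the interferon lists, one point per gene, colored red where higher and blue where lower at an adjusted p under 0.05 in limma and gray otherwise, with a dashed line at the median of all genes tested (0.29). In this scaling the calls among other antiviral genes are all lower (6 of 32), and those among negative regulators are all higher (8 of 13).

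Markers of cell types that the tissue could hold are given beside these genes, to be read against 25.5% of all genes called higher and 7.36% lower. Of 8 cardiomyocyte markers tested, 7 were higher in I/R (87.5%), and their summed level ran from 3615 to 11831 FPKM in sham and from 24717 to 35838 in I/R. Of 6 neutrophil and monocyte markers tested, S100a8 and S100a9 were higher (33.3%) and Ccr2 lower (16.7%), and the 12 matched summed to 32.6 to 36.3 FPKM in sham and 44.6 to 95.1 in I/R, with Mpo listed at 0. Macrophage markers summed to 63.1 to 73.6 FPKM in sham and 81.2 to 101.6 in I/R, with C1qb higher (10%) and Cd163 and Mrc1 lower (20%) of 10 tested. Lymphocyte markers summed to 11.9 to 20.4 FPKM in sham and 5.99 to 11.1 in I/R, with 3 of 6 tested (Cd3g, Cd8a, Klrd1) lower (50%). Of 9 fibroblast markers 2 were higher (22.2%, summed 599 to 795 FPKM in sham, 823 to 886 in I/R). Calls were 0 in each direction among 9 endothelial, 3 dendritic cell and 3 red blood cell markers, with 1 endothelial marker higher and 1 lower at an unadjusted p under 0.05 in limma. The part of these cells in the values of Cxcl10, Ifit3, Mx1 and the lists was not tested.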

How the data were processed

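The authors deposited FPKM values per gene for the 6 samples. The submitters' notes name STAR and HTSeq without versions, and the genome build, the annotation and the total divided by are not given in the sources used here. The kit was stranded and used total RNA. Rows with the same symbol were summed (30452 rows, 28293 genes). The test was limma (version 3.58.1, R 4.3.3, trended eBayes) on log2(FPKM + 0.1) for genes with a mean of at least 0.5 FPKM, with Benjamini-Hochberg adjustment over all 10942 and a threshold of 0.05. The fit was checked on simulated data. Fold changes on this scale understate the change of low genes. Values of gene pairs were compared with two-sided exact permutation tests. Read totals are unknown. Relative depth, from whole steps of low values, was 1, 1.18 and 1.13 in sham and 0.871, 0.933 and 0.883 in I/R. The labels do not say how the rats were sampled beyond their numbers, so p-values measure the spread between these samples. Same-numbered samples, by the labels, deviated from their group means together (correlations 0.203, 0.117 and 0.118, while sham 3 with I/R 2 was at 0.120), and an alternative fit took that number as a block. The gene set, the lists and the motifs were chosen with earlier results of these data known. All 9 genes are named. Of each list, the genes named are up to 4 called in each direction with the largest change and the one with the highest mean, and for each of the set the gene closest by correlation.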

Additional observations from a re-analysis of the deposited data

How the results depend on the processing

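With the mitochondrial mRNAs left out of the scaling, log2 fold changes were −0.41 for Irf1 (sign turned) and 0.61 for Ifit3 (call lost). They were −0.90 for Irf7, −0.91 for Stat2, −0.96 for Ifit2 and −1.92 for Mx1, and these 4 were now called lower. In that scaling 7.06% of all genes were called higher and 25.8% lower. The counts called were 5 interferon response genes (1 higher, 4 lower) and 1 STAT or IRF gene (lower, with the 2 higher calls lost). The 3 receptor or kinase, 6 sensing, 22 antiviral and 8 interferon-gamma-responsive genes called were all lower. The interferon-gamma-responsive list had 4 higher and 0 lower in the deposited scaling. Negative regulators went from 8 higher and 0 lower to 2 and 4. Quantile normalization gave −0.13 for Irf1, −0.97 for Irf7, −1.33 for Mx1, 0.88 for Ifit3 and 2.42 for Cxcl10 minus Cxcl9. It gave 14 antiviral genes called, all lower (against 14.2% of all genes). Centring gave −1.34 for Mx1, with 4 sensing and 13 antiviral genes called, all lower (against 14.2% of all genes). TPM turned the sign of Irf7 (0.084), Stat2 (0.068) and Ifit2 (0.020). A pseudocount of 1 gave 1.32 for Cxcl10 minus Cxcl9, and a filter at 1 FPKM gave 1 sensing gene. With the replicate number as a block Mx1 was called (−1.09, adjusted p = 0.02), and no other call among the 7 genes changed, while the antiviral list went from 0 higher and 6 lower to 3 and 6, the STAT and IRF list from 2 and 0 to 2 and 1, and the interferon-gamma-responsive list from 4 and 0 to 5 and 0. Receptor, sensing and negative regulator counts were as before.

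Leaving out each sample in turn gave ranges of 0.080 to 0.55 for Irf1, −0.30 to 0.17 for Irf7 (0.11 without sham 1, 0.17 without I/R 3), −0.26 to −0.042 for Stat2, −0.43 to 0.072 for Ifit2 (0.072 without sham 2, 0.042 without I/R 3), 1.10 to 1.52 for Ifit3, −1.60 to −0.71 for Mx1 (called without I/R 1), 2.36 to 2.56 for Cxcl10 and −0.032 to 0.80 for Irf1 minus Irf7. Counts of both directions together ran from 1 to 2 for sensing, 2 to 8 for antiviral, 1 to 5 for interferon-gamma-responsive genes and 5 to 8 for negative regulators. Of the recomputed log2 fold changes of the 7 genes, 99 kept their sign and side of the threshold, 2 lost a call (both Ifit3), 9 gained one and 9 turned sign. Of the counts called, both directions together, 105 stayed within 1.5 times, 7 fell and 7 rose by more. The 105 include counts whose direction changed. That of the negative regulators went from 8 higher and 0 lower to 2 and 4 when the mitochondrial mRNAs were left out. The cause was not tested. Over all genes the count called higher ran from 1528 to 2557 and lower from 309 to 881 without one sample, with 772 higher and 2817 lower when the mitochondrial mRNAs were left out, 1441 and 1559 after quantile normalization, 2020 and 1554 after centring, 3449 and 504 in TPM. Low genes (Irf9, Ifng) were limited to 0 to 6 fragments a sample.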
